A study of Homo sapiens with 6 samples.

Results

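The D-type cyclins CCND1, CCND2 and CCND3, the kinases CDK4 and CDK6 that they activate, the inhibitor gene CDKN1B and the retinoblastoma family RB1, RBL1 and RBL2 were followed in MM.1S cells with and without acquired resistance to lenalidomide. These 9 genes were taken by name from a table of 12760 expressed genes, and all 9 were present and passed the filter on low values. MM.1S is a human myeloma line, that is, a line of malignant plasma cells, and carries a translocation that places the transcription factor gene MAF under immunoglobulin control. The WT group was kept in the solvent DMSO, and the LenR group was selected in lenalidomide, starting at 10 nM and raised 10-fold each month over 3 months. The genotype label is WT in both groups, and 3 libraries of total RNA were made from each. The labels call the replicates biological and describe the raising of 1 resistant line, so the p-values below measure only how far these libraries spread, which may be technical. The sources used here do not say whether the drug was still in the medium at harvest, so exposure and selection cannot be told apart.

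D-type cyclins are made in response to growth signals and bind CDK4 or CDK6. The active complexes phosphorylate the pocket proteins RB (RB1), p107 (RBL1) and p130 (RBL2), which otherwise hold E2F transcription factors and the genes of DNA replication in check. The inhibitor p27 (CDKN1B) binds cyclin-CDK complexes. Raised expression of a D-type cyclin is an early and nearly constant feature of myeloma, and MAF-translocated disease is known for CCND2.

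Library totals ranged from 14500140 to 17387914 reads, worked out from the deposited values. The first principal component (58.1% of the variance) separated the groups. The second (26.8%) set WT replicate 3 and LenR replicate 2 (scores 14.0 and 13.7) apart from the other libraries. On the other side, LenR replicate 3 lay furthest out (−12.7), with WT replicates 1 and 2 at −5.79 and −6.62 and LenR replicate 1 at −2.62. WT replicates 1 and 2 were much closer to each other than any other pair, with a mean chi-square of 1.84 per gene against 9.45 for the next closest pair by that measure, LenR replicates 1 and 3. Plasma cell markers were high in every library, with 9 of 10 listed markers measured and summed levels of 3918 to 4534 FPKM in WT and 4617 to 5550 FPKM in LenR. Of these 9, 5 (55.6%, beside 8.57% higher over all genes tested) rose in LenR by limma (SDC1, IRF4, PRDM1, XBP1 and CD38). Their part in the results below was not tested. Of the markers of other cell types, 1 of 5 mature B cell genes (CD79B, 20.4 and 14.4 FPKM in WT and LenR), 1 of 6 T and NK cell genes (CD3E, 2.61 and 1.96), 1 of 3 erythroid genes (HBB, 6.66 and 6.67), 2 of 6 epithelial and stromal genes (COL1A1, 0.259 and 0.381, and PECAM1, 3.77 and 4.61) and 0 of 5 myeloid genes were in the table; the others were not analysed here.

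CCND1 and CDK6 were higher in LenR and RBL1 was slightly lower, while CCND2 made up at least 75.5% of the D-type cyclin transcripts in every library of both groups. Of the 9 genes, 2 rose and 1 fell past an adjusted p of 0.05 by limma on log2(FPKM + 1), a share of 33.3%. Over all 11276 genes tested, 15.1% passed, 8.57% higher and 6.57% lower. At an unadjusted p under 0.05, 4 of the 9 passed, against 28.7% of all genes. FPKM is a level per length of gene and per depth of library. Shares, ratios and ranks between genes therefore rest on the length used for each gene. These lengths, worked out from the deposited values, were 2002 bases for CDK4 and 11762 for CDK6, for example, and their annotation is not given. In bulk RNA, fewer cells expressing a gene and less RNA per cell cannot be told apart.

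**Figure D1:**
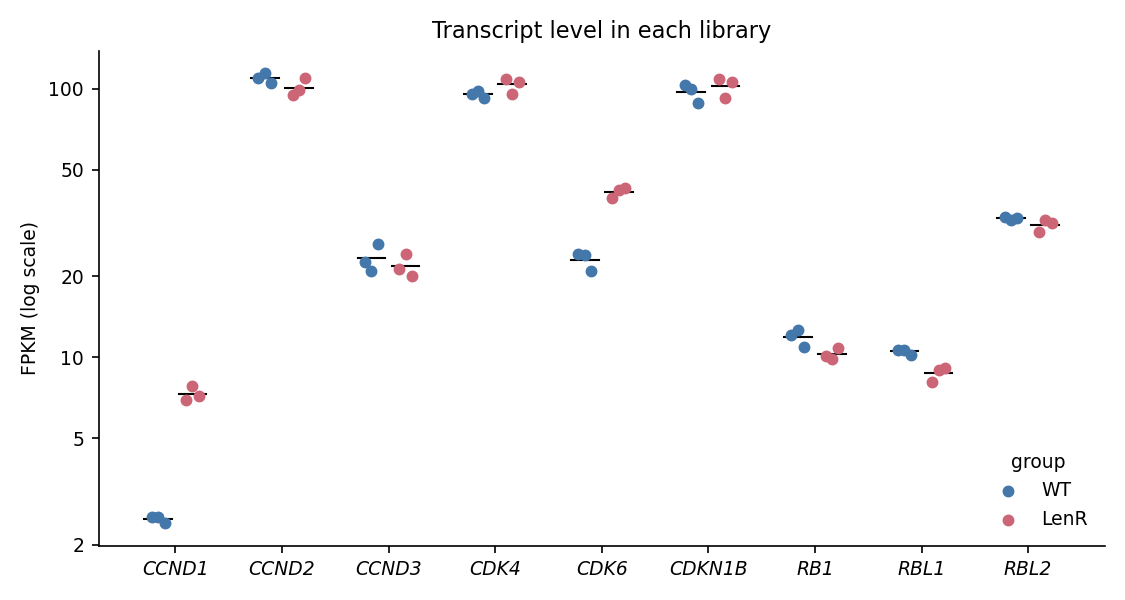
Transcript level of the 9 genes in each library, in FPKM on a log scale; points are libraries (WT blue, LenR red) and black lines are group means. CCND1 lies at 2.41 to 2.55 FPKM in WT and 6.93 to 7.80 FPKM in LenR, CDK6 also separates the groups, and CCND2, CDK4 and CDKN1B lie between 88.7 and 114 FPKM in both.

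CCND1, which encodes cyclin D1, lies on chromosome 11 (69641087 to 69654474, plus strand, GRCh38). Its level was 2.54, 2.55 and 2.41 FPKM in WT replicates 1 to 3 and 6.93, 7.80 and 7.17 FPKM in LenR replicates 1 to 3. All LenR libraries lay above all WT libraries, from 151 to 191 reads in WT and 433 to 538 reads in LenR. The mean rose from 2.50 ± 0.0767 to 7.30 ± 0.447 FPKM (SD, n = 3 per group), a ratio of means of 2.92. The log2 fold change on the log2(FPKM + 1) scale was 1.25 (SE 0.0668; limma, adjusted p = 6.71e-05), which understates the change of a gene this low, and it was 1.54 with voom on the reads. CCND1 was the lowest of the 9 genes in both groups.

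CCND2 (chromosome 12, 4273772 to 4305350, plus strand), which encodes cyclin D2, measured 109, 114 and 105 FPKM in WT and 94.4, 98.6 and 109 FPKM in LenR. The groups overlapped through LenR replicate 3. The means were 109.6 ± 4.51 and 100.8 ± 7.76 FPKM (log2 fold change −0.12, 95% confidence interval −0.31 to 0.07; limma, adjusted p = 0.385). CCND3 (chromosome 6, 41934933 to 42050357, minus strand), which encodes cyclin D3, measured 22.7, 21.0 and 26.5 FPKM in WT and 21.3, 24.1 and 20.1 FPKM in LenR. These values overlapped as well (log2 fold change −0.09, interval −0.33 to 0.15; limma, adjusted p = 0.623).

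The rise of CCND1 therefore changed the make-up of the D-type cyclin transcripts without replacing CCND2. CCND1 made up 1.89%, 1.85% and 1.80% of the summed FPKM of the 3 cyclins in WT and 5.65%, 5.97% and 5.25% in LenR. CCND2 made up 78.5% to 82.9% in WT and 75.5% to 80.1% in LenR, ranges that overlap, and CCND3 made up 17.3% ± 2.27 and 16.8% ± 1.95 (SD, n = 3 per group). The summed level was 134.5, 137.8 and 134.1 FPKM in WT replicates 1 to 3 and 122.6, 130.6 and 136.7 FPKM in LenR replicates 1 to 3. The CCND2 transcript exceeded that of CCND1 by 43.1 to 44.9 times in WT and by 12.6 to 15.3 times in LenR. The mean log2 ratio of CCND1 to CCND2 went from −5.46 to −3.79, a difference of 1.67, and was higher in 3 of 3 LenR libraries than in any WT library (two-sided exact permutation test, p = 0.1, the smallest that 3 against 3 can give).

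**Figure D2:**
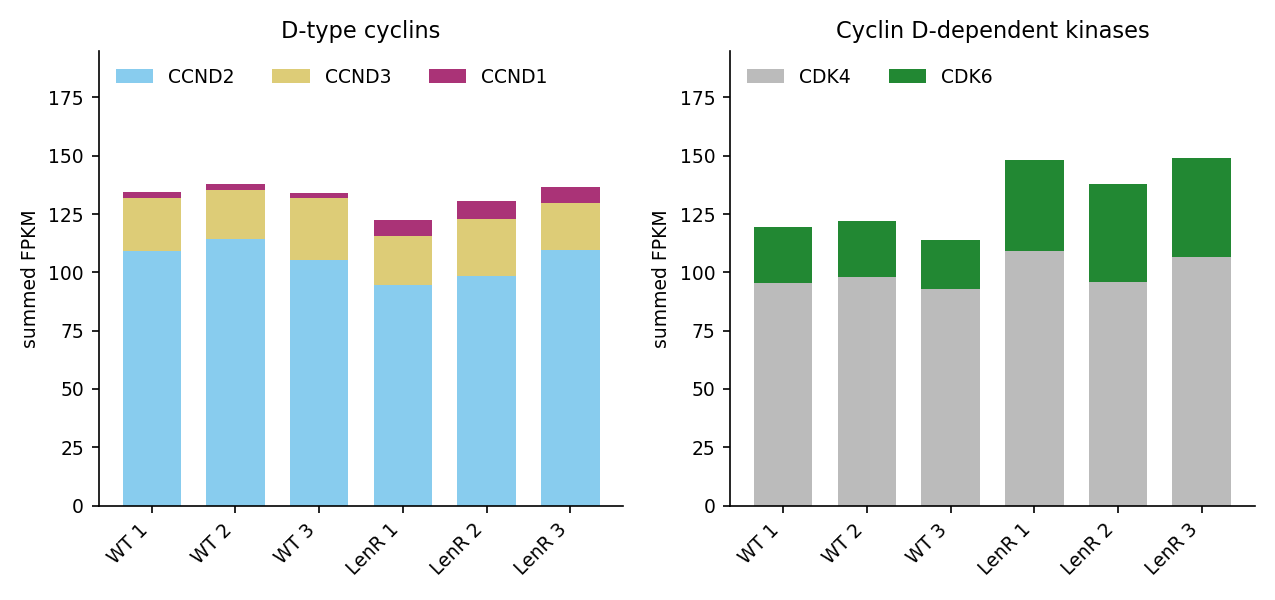
FPKM of the D-type cyclins (left) and of CDK4 and CDK6 (right), stacked for each library, with bars starting at 0. CCND2 fills most of every cyclin bar and the CCND1 share goes from about 1.84% in WT to 5.62% in LenR. The kinase bars are taller in LenR, more through CDK6 (means 23.1 and 41.3 FPKM in WT and LenR) than through CDK4 (95.4 and 103.8).

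CDK6 (chromosome 7, 92604921 to 92836594, minus strand), 1 of the paired kinases of the D-type cyclins, measured 24.2, 24.0 and 21.0 FPKM in WT and 39.3, 41.9 and 42.6 FPKM in LenR. The groups did not overlap. The mean rose from 23.1 ± 1.78 to 41.3 ± 1.73 FPKM (n = 3 per group), a ratio of 1.79 and a log2 fold change of 0.81 (SE 0.0776; limma, adjusted p = 0.000445). CDK4 (chromosome 12, 57747727 to 57756013, minus strand), the paralogous kinase, measured 95.4, 98.2 and 92.7 FPKM in WT and 109, 95.8 and 106 FPKM in LenR. LenR replicate 2 lay within the WT range, and CDK4 did not pass (log2 fold change 0.12, interval −0.06 to 0.30; limma, adjusted p = 0.373). The gene body of CDK4 overlaps that of TSPAN31 on the opposite strand (16.3 and 18.6 FPKM in WT and LenR). Since the strand setting is not given, reads over shared bases cannot be told apart. The same limit holds at RB1 (with RCBTB2), RBL2 (with AKTIP) and CCND1 (with LTO1, not analysed here), where gene bodies also overlap on opposite strands.

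CDK4 remained the more abundant kinase transcript, by 3.94 to 4.41 times in WT and 2.28 to 2.78 times in LenR. The share of CDK6 in the summed FPKM of the pair was 20.2%, 19.6% and 18.5% in WT and 26.5%, 30.4% and 28.6% in LenR. The summed level was 113.7 to 122.2 FPKM in WT and 137.7 to 149.0 FPKM in LenR. The mean log2 ratio of CDK6 to CDK4 was higher by 0.72 in LenR, with no overlap between groups (two-sided exact permutation test, p = 0.1, again the smallest possible).

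CDKN1B (chromosome 12, 12715058 to 12722371, plus strand) measured 103, 100.1 and 88.7 FPKM in WT and 109, 92.6 and 106 FPKM in LenR. The lowest value in each group came from the library that stood apart, WT replicate 3 and LenR replicate 2. CDKN1B did not pass (log2 fold change 0.07, interval −0.15 to 0.29; limma, adjusted p = 0.680). It was among the most abundant of the 9 transcripts, and its library range overlapped that of CDK4 in both groups.

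Of the pocket protein genes, RBL1 (chromosome 20, 36996349 to 37095995, minus strand) measured 10.7, 10.7 and 10.2 FPKM in WT and 8.11, 8.95 and 9.11 FPKM in LenR. All 3 LenR libraries lay below all WT libraries. RBL1 fell to a mean of 8.73 ± 0.535 FPKM from 10.5 ± 0.295 FPKM (log2 fold change −0.24, SE 0.0667; limma, adjusted p = 0.0463). Leaving out any 1 of the 6 libraries ended this call (limma, adjusted p from 0.0553 to 0.171). Leaving out WT replicate 3 and LenR replicate 2 together also ended it (0.0579).

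RB1 (chromosome 13, 48303726 to 48599436, plus strand) measured 12.1, 12.6 and 10.9 FPKM in WT and 10.1, 9.88 and 10.8 FPKM in LenR. The groups were separated by a narrow gap, between WT replicate 3 and LenR replicate 3, and RB1 did not pass (log2 fold change −0.19, interval −0.36 to −0.02; limma, adjusted p = 0.134). It passed only with a term for the 2 libraries that stood apart, chosen after seeing the data (adjusted p = 0.0384, against up to 0.398 in its other fits). RCBTB2, whose gene body overlaps that of RB1 on the opposite strand, fell from 10.8 to 8.22 FPKM (log2 fold change −0.35; limma, adjusted p = 0.0118), a call that ended without WT replicate 1 or WT replicate 2 (up to 0.0620). RBL2 (chromosome 16, 53433977 to 53491649, plus strand) measured 33.2, 32.4 and 33.2 FPKM in WT and 29.4, 32.5 and 31.7 FPKM in LenR. LenR replicate 2 lay within the WT range (log2 fold change −0.08, interval −0.23 to 0.08; limma, adjusted p = 0.506).

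Groups that did not overlap were seen for 4 of the 9 genes (CCND1, CDK6, RBL1 and RB1), against 34.5% of all genes tested. The median log2 fold change of the 9 genes was −0.08, beside −0.0023 for all genes. The log2 fold changes between LenR replicate 2 and WT replicate 3 alone, and in the 4 other libraries, were 1.37 and 1.18 for CCND1, 0.96 and 0.74 for CDK6, −0.17 and −0.28 for RBL1 and −0.13 and −0.22 for RB1.

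**Figure D3:**
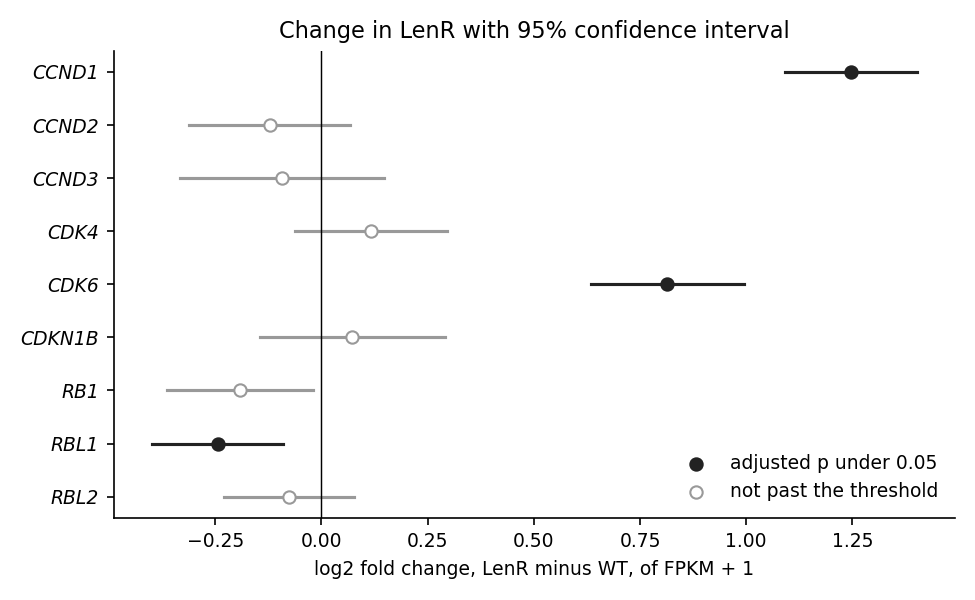
Log2 fold change of each gene (LenR minus WT, on FPKM + 1) with its 95% confidence interval from limma; filled points passed an adjusted p of 0.05. CCND1 (1.25) and CDK6 (0.81) lie well above 0, RBL1 (−0.24) below it, and the other intervals lie within −0.36 to 0.30.

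By mean level, WT libraries ranked CCND2 first, then CDKN1B, CDK4, RBL2, CCND3, CDK6, RB1, RBL1 and CCND1. Library ranges of neighbours in this order overlapped for CDKN1B and CDK4 and for CCND3 and CDK6. In LenR the order was CDK4, CDKN1B, CCND2, CDK6, RBL2, CCND3, RB1, RBL1 and CCND1, and the first 3 overlapped. The range of CDK6 thus overlapped that of CCND3 in WT and lay above those of RBL2 and CCND3 in LenR. Among all 12760 genes, CCND2, CDKN1B and CDK4 lay at the percentiles 95.2, 94.8 and 94.8 of mean FPKM, and CCND1 at 34.5.

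Reference windows from 250 bases before to 50 bases after an annotated start were at hand for 7 of the 9 genes (RefSeq, GRCh38.p14; none for CCND1 and CCND2). The RB1 window, at 48476200 to 48476499, lies inside the gene, which begins at 48303726, so the promoter at the first start of RB1 was not examined. The same holds for the windows of CDK4, CDKN1B, CCND3 and RBL2, which lie inside the GENCODE gene bodies. CDK4, for example, begins at 57756013 on the minus strand, and its window ends at 57752560. The RBL1 window and 1 of 2 CDK6 windows hold the first start. The windows were searched on both strands for E2F sites (TTTCGCGC, TTTGGCGC, TTTCCCGC or TTTGCCGC) and for the E-box CACGTG, bound by MYC with MAX. They are shown for RBL1, the pocket protein gene that fell, and for the kinases CDK4 and CDK6, whose transcripts differed in response, with the matches in capitals. E2F sites were found in the RBL1 window, at 26 and 16 bases before the start, in none of the other windows searched, and in 3.31% of all 35116 promoters. E-boxes were found in CDK4 (3 matches) and at 1 of 2 starts of CDK6 (1 match), and in 7.26% of all promoters. A match describes the letters in the window and shows no binding.
RBL1, chr20:37095948-37096247, minus strand: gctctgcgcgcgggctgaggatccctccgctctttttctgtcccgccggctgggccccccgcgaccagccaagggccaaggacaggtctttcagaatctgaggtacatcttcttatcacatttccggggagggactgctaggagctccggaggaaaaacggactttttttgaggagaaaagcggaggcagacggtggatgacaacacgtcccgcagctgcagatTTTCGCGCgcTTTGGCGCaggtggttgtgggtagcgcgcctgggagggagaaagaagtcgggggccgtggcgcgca
CDK4, chr12:57752261-57752560, minus strand: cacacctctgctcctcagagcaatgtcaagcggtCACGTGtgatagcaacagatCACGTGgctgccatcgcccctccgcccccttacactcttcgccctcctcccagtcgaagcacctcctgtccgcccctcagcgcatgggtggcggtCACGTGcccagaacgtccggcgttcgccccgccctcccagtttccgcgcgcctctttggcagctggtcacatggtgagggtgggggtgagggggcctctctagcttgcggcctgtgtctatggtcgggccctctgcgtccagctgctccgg
CDK6, chr7:92836524-92836823, minus strand: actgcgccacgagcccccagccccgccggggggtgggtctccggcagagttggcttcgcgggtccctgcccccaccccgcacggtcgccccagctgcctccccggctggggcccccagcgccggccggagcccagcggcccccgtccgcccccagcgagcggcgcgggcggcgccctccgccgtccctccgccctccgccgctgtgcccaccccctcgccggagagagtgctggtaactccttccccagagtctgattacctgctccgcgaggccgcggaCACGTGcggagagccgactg

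Beside these sequences stand the levels of the factors that read such sites. E2F1, E2F3 and E2F4 had log2 fold changes of −0.02, 0.01 and −0.0027 and did not pass. E2F2 (59.2 and 49.2 FPKM in WT and LenR, −0.26) and E2F6 (−0.12) lay lower in LenR without overlap. By limma they did not pass either (adjusted p = 0.127 and 0.290). E2F7, a repressor of the family, fell from 21.2 ± 0.0510 to 17.8 ± 0.610 FPKM (−0.24, adjusted p = 0.0313 by limma). The dimer partner TFDP2 rose from 2.90 ± 0.115 to 4.17 ± 0.200 FPKM (0.41, adjusted p = 0.00463). Of the 10 E2F and DP genes, 1 rose and 1 fell, and 7 lay below 0 (median −0.03). This is 10% each way, beside 8.57% higher and 6.57% lower over all genes. MYC measured 238, 233 and 281 FPKM in WT and 369, 442 and 336 FPKM in LenR and rose (0.60; limma, adjusted p = 0.0157), without overlap between groups. Of the kinases with an E-box in a window, CDK6 rose and CDK4 did not pass, as given above; binding was not measured. The call of E2F7 ended in 5 of the 6 fits that leave out 1 library, and held with LenR replicate 2 left out (adjusted p up to 0.135 in the 5), while the MYC call ended in 3 of them, those without LenR replicate 1 or either of WT replicates 1 and 2 (up to 0.0724).

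Genes that act after cyclin D and CDK4/6 were examined next. Of 24 E2F target genes of the G1/S transition and DNA replication, 4 fell and none rose by limma. The share lower was 16.7%, beside 6.57% lower over all genes and 15.1% called in either direction. At an unadjusted p under 0.05 there were 7 of 24, against 28.7% of all genes. Of the 24, 20 lay below 0 (median −0.12, beside −0.0023 for all genes). GINS1, a subunit of the replicative helicase, fell from 21.9 ± 1.42 to 15.3 ± 1.24 FPKM (−0.49, adjusted p = 0.00526) and RRM2, a subunit of ribonucleotide reductase, from 316 ± 16.9 to 238 ± 13.1 FPKM (−0.41, adjusted p = 0.0154). The replication licensing factor CDC6 also fell (−0.28, adjusted p = 0.0244). The count was 3 with both libraries that stood apart left out, and 2 without LenR replicate 2 alone. Without WT replicate 1, without WT replicate 2 or without LenR replicate 1 it was 1 each time. GINS1 kept its call in all 6 such fits (adjusted p up to 0.0297), and RRM2 lost its own in those last 3 (up to 0.0932). CDC6 lost its call in the same 3 and without LenR replicate 2 (up to 0.126). Among these genes, 21 had a promoter at hand, and 13 of them (61.9%) held 1 of the E2F sites above, against 3.99% of all genes; since the list was made of known E2F targets, this describes the list.

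Of 10 measured cyclins A, B and E, their kinases CDK1 and CDK2 and the CDC25 phosphatases, 1 fell and none rose, and 9 lay below 0 (median −0.17). The share lower was 10%, beside 6.57% over all genes. CCNE1, which encodes cyclin E1, the partner of CDK2 that follows cyclin D, fell from 32.4 ± 0.616 to 27.2 ± 1.07 FPKM (−0.24; limma, adjusted p = 0.0380), a call lost whichever library was left out (adjusted p from 0.0629 to 0.172). Without WT replicate 3 and LenR replicate 2, 2 of the 10 fell. None of the 7 genes of the MuvB core with MYBL2 and FOXM1, which join p107 or p130 in the DREAM complex or follow it, passed by limma (1 at an unadjusted p under 0.05, and 0 with voom on the reads). Of these 7, 6 lay below 0 (median −0.04).

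Of the other CDK inhibitors, 2 of 6 listed genes were tested, and 1 fell, beside 6.57% lower over all genes. CDKN1A, which encodes p21, a relative of p27, measured 48.2, 48.3 and 53.7 FPKM in WT and 32.7, 33.9 and 30.7 FPKM in LenR and fell (log2 fold change −0.61; limma, adjusted p = 0.00132). CDKN2D, an INK4 inhibitor of CDK4 and CDK6, measured 9.47 ± 0.393 and 7.55 ± 1.58 FPKM (−0.31) and did not pass (adjusted p = 0.152); without LenR replicate 1 it passed, and 2 of these 2 genes were called lower. CDKN1C, CDKN2A, CDKN2B and CDKN2C were not analysed here.

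Of 12 tested genes for the turnover of cyclin D and p27 protein, 1 rose, none fell and 8 lay below 0 (median −0.03). The share higher was 8.33%, beside 8.57% over all genes. FBXW8, an F-box protein that recognises cyclin D1, rose from 5.85 ± 0.748 to 7.82 ± 0.697 FPKM (0.37; limma, adjusted p = 0.0415), a call that held only in the fits without WT replicate 3 or LenR replicate 3, of the 6 that leave 1 out (adjusted p up to 0.147 in the rest). SKP2, the F-box protein of p27, and AMBRA1, a substrate receptor for D-type cyclins, had log2 fold changes of −0.03 and −0.10 and did not pass. Of 5 tested genes of the CDK-activating kinase and the chaperones of CDK4 and CDK6, 4 lay below 0 (median −0.11). By limma, 1 of the 5 fell (20%, beside 6.57% over all genes) and none rose. This was the chaperone HSP90AA1 (147 ± 4.43 to 115 ± 6.39 FPKM, −0.35, adjusted p = 0.0179 by limma). Its call ended without LenR replicate 1 or either of WT replicates 1 and 2 (adjusted p up to 0.105).

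Of 15 tested transcription factors known to act on D-type cyclin genes or CDKN1B, 1 rose (MYC) and 3 fell, ETS1, FOS and STAT5A (median 0.03). These are shares of 6.67% higher and 20% lower, beside 8.57% and 6.57% over all genes. ETS1, a founding ETS family member, measured 16.1, 15.7 and 15.0 FPKM in WT and 9.69, 9.91 and 10.2 FPKM in LenR (−0.60; limma, adjusted p = 0.000559). FOS, a subunit of AP-1, fell from 64.0 ± 3.79 to 42.7 ± 4.55 FPKM (−0.58, adjusted p = 0.00459). STAT5A fell from 1.28 ± 0.187 to 0.749 ± 0.0920 FPKM (−0.38, adjusted p = 0.0219 by limma, and −0.77 with voom on the reads). Its LenR mean lay under the filter of 1 FPKM, which it passed only through WT. The STAT5A call ended without WT replicate 1, without LenR replicate 1 and with both libraries that stood apart left out (adjusted p up to 0.0885). MAF, known as an activator of CCND2, measured 126, 124 and 119 FPKM in WT and 140.2, 125 and 123 FPKM in LenR (0.07; limma, adjusted p = 0.627), so it was abundant in both groups, as was CCND2. FOXO3, an activator of CDKN1B, did not pass (0.18; limma, adjusted p = 0.111). Its LenR libraries (118.9 to 125.3 FPKM) nevertheless all lay above its WT libraries (106.0 to 107.2 FPKM).

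**Figure D4:**
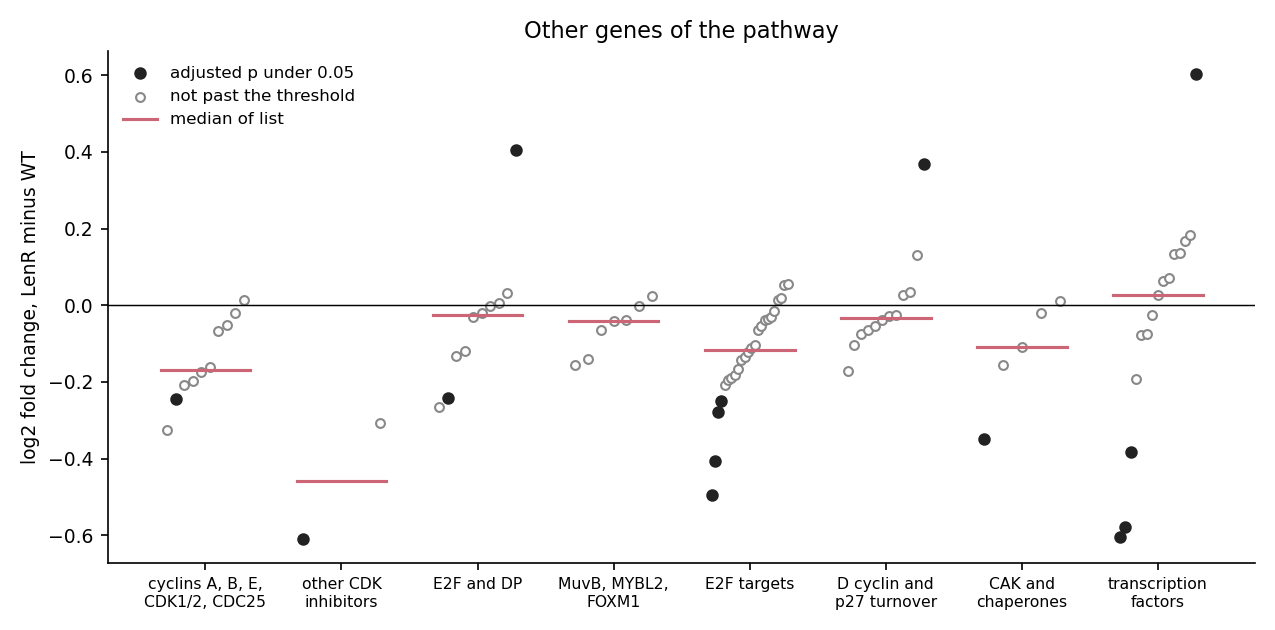
Log2 fold change (LenR minus WT, on FPKM + 1) of the other genes of the pathway by list; each point is a gene, filled where it passed an adjusted p of 0.05, and red lines are medians. E2F targets have a median of −0.12 with 4 of 24 lower (6.57% lower over all genes), and most transcription factors lie near 0 with MYC at 0.60 and ETS1 at −0.60.

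The genes around CCND1 and CDK6 were set beside them. Of 8 tested genes within 1 Mb of CCND1, 3 rose and none fell, with a median log2 fold change of 0.09 beside 1.25 for CCND1. Over all genes, 8.57% rose and 6.57% fell. CTTN, which encodes the actin-binding protein cortactin and lies 743.9 kb away, measured 0.678, 0.625 and 0.959 FPKM in WT and 4.35, 4.35 and 4.04 FPKM in LenR. CTTN rose in all 3 LenR libraries (log2 fold change 1.59, adjusted p = 6.71e-05 by limma, ratio of means 5.63). With voom on the reads it rose by 2.51 on the log2 scale. Its WT mean of 0.754 FPKM lay under the filter of 1 FPKM, which it passed only through LenR (mean 4.25 FPKM). Its test and its place among the 3 therefore depend on the LenR level. MYEOV (0.35, adjusted p = 0.0170) and TPCN2 (0.24, adjusted p = 0.0432) rose less, and their calls ended without LenR replicate 1 or either of WT replicates 1 and 2, for TPCN2 also without WT replicate 3 or LenR replicate 2 (up to 0.0816 and 0.175). FADD and PPFIA1, which lie between CCND1 and CTTN, had log2 fold changes of −0.05 and 0.13 and did not pass.

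Of 12 tested genes within 1 Mb of CDK6, 1 rose (GATAD1, 0.34) and 2 fell (SAMD9L, −0.38, and KRIT1, −0.23), with a median of −0.04. Beside the counts in this paragraph stand 8.57% higher and 6.57% lower over all genes. The nearest, FAM133B at 14.5 kb, had a log2 fold change of −0.05. The call of GATAD1 ended without WT replicate 1 (limma, adjusted p = 0.0580), and that of KRIT1 whichever library was left out (up to 0.182). The 16 neighbours of RBL1 had a median of −0.04, with 3 higher and 1 lower, and the 10 neighbours of RB1 a median of −0.02, with RCBTB2 alone lower. Medians around the 5 other genes ranged from −0.11 (RBL2) to 0.12 (CDK4).

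**Figure D5:**
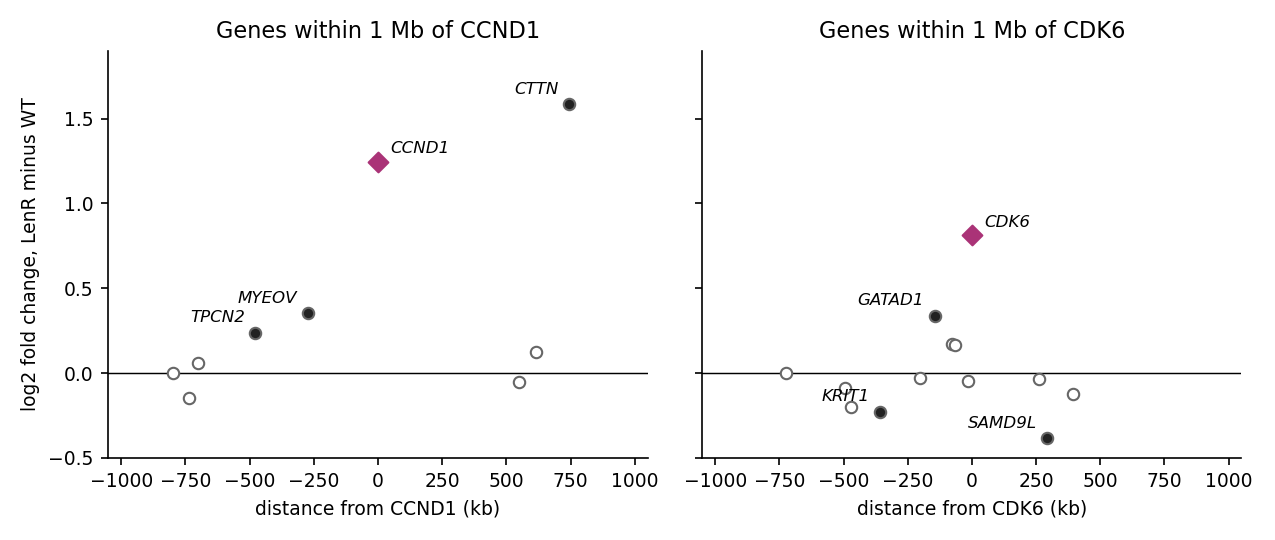
Log2 fold change of tested genes within 1 Mb of CCND1 (left) and CDK6 (right) against distance in kb; diamonds are CCND1 and CDK6 and filled circles are neighbours past an adjusted p of 0.05. CTTN (1.59) is the only neighbour near the level of CCND1, and the highest neighbour of CDK6 is GATAD1 (0.34).

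Across the 6 libraries, the genes with the most similar pattern to CCND1 were SQLE, ALDH1L2 and COL9A2, with root mean square distances of 0.08, 0.09 and 0.11 between log2(FPKM + 1) values centred on each gene's mean, among 8309 genes at or above a mean level of 5 FPKM. SQLE, the squalene epoxidase of cholesterol synthesis, went from 11.6 to 31.7 FPKM, ALDH1L2, a mitochondrial folate enzyme, from 9.89 to 22.5 FPKM, and COL9A2, a collagen chain, from 7.72 to 18.8 FPKM. Closest to CDK6 were TP53INP1, FEM1B and GPC4, each at a distance of 0.06. These went from 22.1 to 40.9, from 53.3 to 88.6 and from 6.02 to 10.7 FPKM. The distance is a description over 6 libraries and includes the difference between the groups.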

How the data were processed

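RNA-seq was done on total RNA from 6 MM.1S samples, and the authors deposited 1 table of FPKM values with a column per library, matched to samples through the labels. HISAT2 2.2.1, edgeR 3.40.2, FastQC 0.11.9 and featureCounts 2.0.3 are named, per the submitters' processing notes, with no role or order, beside the build hg38. The sources used here give no annotation, strand setting or rule for which genes count as expressed. Within a gene the values are whole multiples of a step, which gave whole reads for all 12760 genes within 0.03 of a read (median 511 per gene and library), and library sizes 0.995 to 1.02 times the read totals.

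Genes at or above a mean level of 1 FPKM (11276, leaving out 1484) were tested on log2(FPKM + 1) with limma 3.58.1 (R 4.3.3; group as the only term, empirical Bayes with a trend), two-sided, with Benjamini-Hochberg adjustment over all of them and a threshold of 0.05. Standard errors and confidence intervals are limma's. Positions came from GENCODE 29. Library depth and the 3 libraries per group limit the precision. The test was checked on simulated data. Simulated reads were drawn independently for each gene and library, with no effect shared across the genes of a library. Dependence of the kind seen in the second principal component was therefore not part of that check. Named genes are the 9 members, up to 2 called genes per direction from each of 8 pathway lists, neighbours and the 3 nearest patterns to CCND1 and CDK6; CDC6, STAT5A and genes given as not past the threshold were named after their values were seen. The values of 1 list gene are not reported here. Members, lists, rules and 16 alternatives were chosen with earlier results of these data known, and 2 alternatives (voom on the reads, a model term that marks LenR replicate 2 and WT replicate 3) were added later. Figures were drawn with matplotlib 3.10.9.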

Additional observations from a re-analysis of the deposited data

How the results depend on the processing

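All 18 alternatives kept the direction of each of the 9 genes where it was tested. The calls of CCND1 and CDK6 held in every fit that tested them, with log2 fold changes of 1.18 to 1.54 and 0.74 to 0.85; CCND1, with a mean of 4.90 FPKM, was not tested at a minimum mean of 5 FPKM, which left 1 of the 9 genes called (CDK6). RBL1 lost its call with the replicate block (−0.24, adjusted p = 0.213 by limma), without a filter (−0.24, 0.0510), at a minimum mean of 5 FPKM (−0.24, 0.0504), without the trend (−0.24, 0.0522), in the 4 libraries left without WT replicate 3 and LenR replicate 2 (−0.28, 0.0579), with WT replicates 1 and 2 averaged (−0.23, 0.166), and with 1 library left out (−0.27 to −0.20). RB1 gained a call with the added term that marks LenR replicate 2 and WT replicate 3 (−0.19, 0.0384). The cause was not tested. The difference in log2 ratio with 1 library left out was 1.61 to 1.74 for CCND1 to CCND2 and 0.65 to 0.79 for CDK6 to CDK4, and the difference in CCND1 share was 3.61 to 3.97 percentage points. Over all genes, 1707 calls became 907 with the replicate block, 1075 at a minimum mean of 5 FPKM, 1052 with WT replicates 1 and 2 averaged, 3163 with the added term, and 1006 to 1562 with 1 library left out. Samples share only a number: same-numbered libraries deviated from their group means with correlations of 0.02, −0.56 and −0.68, and WT replicate 3 correlated best with LenR replicate 2 (0.69).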

Other observations

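CDK7, the catalytic subunit of the CDK-activating kinase, was listed at 0.392 ± 0.200 FPKM in WT and 0.650 ± 0.467 FPKM in LenR (SD, n = 3 per group), below the filter, while its partners CCNH (13.7 and 13.5 FPKM) and MNAT1 (9.73 and 8.62 FPKM) were well above it. The reason for this low value was not tested.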
